A study of Mus musculus with 6 samples.

Results

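Cytokines, their receptors and leukocyte adhesion molecules were followed in mouse EOMA cells, a line derived from a mouse endothelioma, a tumour of vessel-lining cells. The genes described are Il6, Il1a, Il1b, Il33, Lif, Csf1, Csf1r, Cd14, Vcam1 and Icam1, taken by symbol from the deposited table. They are 10 of its 22564 protein-coding genes. One group received the solvent DMSO for 24 h (3 libraries) and the other 2 µM DHTS, the plant tanshinone dihydrotanshinone I, for 24 h (3 libraries). All cells shared the same medium with serum and antibiotics, at 5% CO2 and 21% O2. Whether the 3 libraries of each group stem from different cultures is not stated, so every p-value reflects library-to-library spread alone, possibly technical. Each library held 9343175 to 12255246 estimated fragments. Total RNA was read as gene expression, so a change in RNA per cell cannot be told apart from a change in the share of cells that make it.

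These genes form the inflammatory output of many stromal and tumour cells. Cytokines such as interleukin-6 and the interleukin-1 group signal to receptors on the same or neighbouring cells, and CSF1 keeps macrophages alive through its receptor. CD14 passes bacterial lipopolysaccharide to Toll-like receptor 4, whose adaptor MyD88 is shared with the interleukin-1 receptors. VCAM-1 and ICAM-1 are displayed by activated endothelium, where integrins of passing leukocytes bind them. Many of these genes are switched on by the transcription factor NF-kB, and many cytokine mRNAs carry AU-rich elements that shorten their life.

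Levels are FPKM, fragments scaled for transcript length and library size. Genes with a mean of at least 1 FPKM over the 6 libraries were tested with limma on log2(FPKM + 1), adjusted over all 11416 such genes, and a gene was called at an adjusted p under 0.05. A log2 fold change is on that scale and understates the change of low genes. Of the 10 genes 8 were tested, 5 were called lower and 2 higher, and 1 was not called. Across all genes tested, DHTS changed 50.1% at that threshold, 21.9% downward and 28.2% upward. The groups did not overlap in 7 of the 8 genes, 2 with DHTS higher and 5 lower, against 59.8% of all genes tested (33.0% higher and 26.8% lower). The median log2 fold change was −0.60 over the 8 tested genes and 0.03 over all genes tested. Vcam1, Icam1, Csf1, Csf1r and Cd14 fell, Lif rose, Il6 passed narrowly, Il33 did not pass, and Il1a and Il1b were too low to test. Il6 met the filter only through the DHTS libraries (mean 0.932 FPKM with DMSO and 1.72 with DHTS). Its place among the genes called higher or not overlapping is therefore no support.

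**Figure D1:**
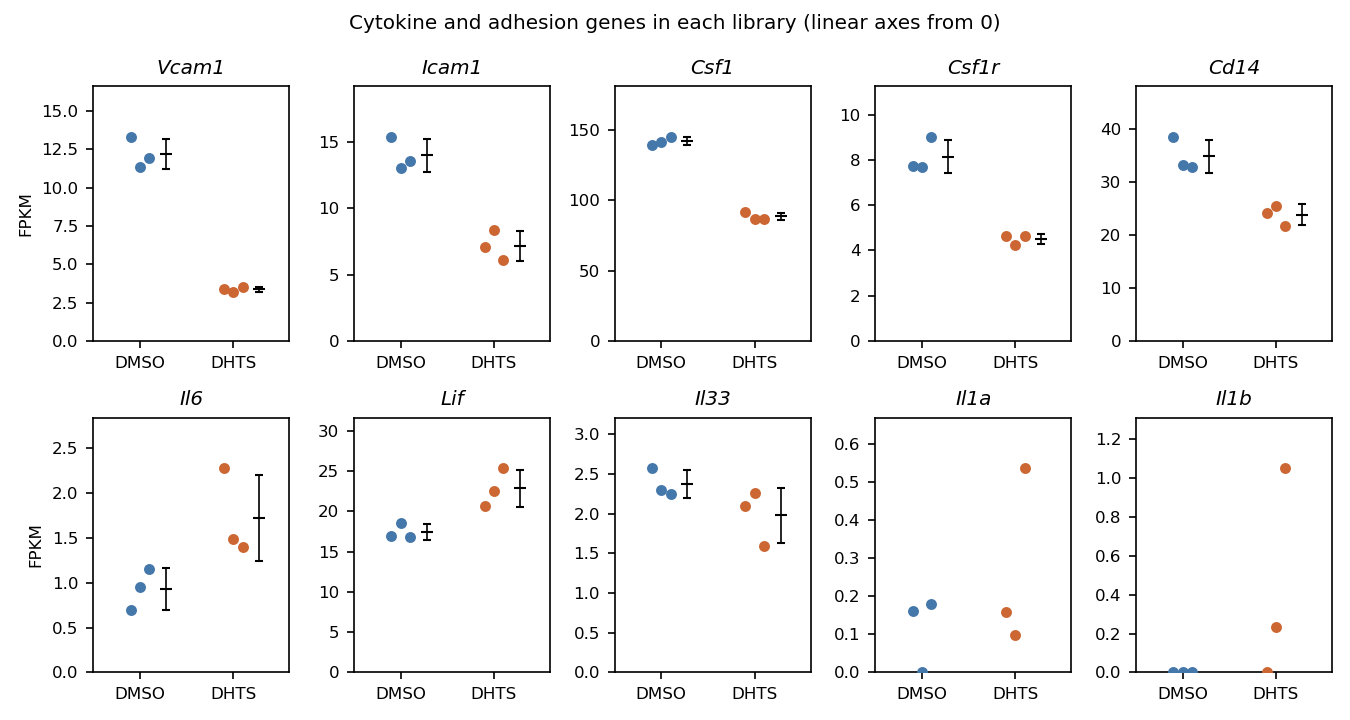
FPKM of each gene (vertical axes, linear from 0) in the 3 DMSO libraries (blue) and 3 DHTS libraries (orange); black marks give mean and SD for the 8 tested genes. Every DHTS point lies below every DMSO point for Vcam1, Icam1, Csf1, Csf1r and Cd14 and above for Il6 and Lif, while Il33, Il1a and Il1b overlap.

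The order of levels differed between the groups. With DMSO, Csf1 stood highest at 142 ± 2.96 FPKM (SD over the 3 libraries of a group, here and below), followed by Cd14 (34.9 ± 3.13), Lif (17.5 ± 0.986), Icam1 (14.0 ± 1.22), Vcam1 (12.2 ± 1.00), Csf1r (8.16 ± 0.748), Il33 (2.38 ± 0.171) and Il6 (0.932 ± 0.233). Among these 8 the ranges of neighbours overlapped for Icam1 and Vcam1 only. With DHTS, Csf1 again stood first at 88.4 ± 2.66 FPKM. Cd14 (23.8 ± 1.96) and Lif (22.9 ± 2.34) then overlapped, as did Il33 (1.98 ± 0.347) and Il6 (1.72 ± 0.480). Vcam1 (3.38 ± 0.155) lay below Csf1r (4.50 ± 0.228) with DHTS and above it with DMSO, and the ranges of these genes did not overlap in either group.

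Vcam1, the endothelial ligand of the integrin that Itga4 and Itgb1 encode, fell most among the 10 genes. It lies on chromosome 3 at 116109949 to 116129688 (mm10, minus strand). Its level was 13.3, 11.4 and 12.0 FPKM in the DMSO libraries and 3.41, 3.21 and 3.52 FPKM in the DHTS libraries. The lowest DMSO library was thus more than 3 times the highest DHTS library. The mean level dropped by 72.3%, with a log2 fold change of −1.59 (SE 0.08, 95% interval −1.79 to −1.39; limma, adjusted p = 8.7e-06). Only 0.368% of all genes tested had a lower log2 fold change. These levels rest on 458, 374 and 492 estimated fragments with DMSO and 119, 120 and 110 with DHTS.

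Icam1 encodes the ligand of the leukocyte integrin made from Itgal and Itgb2, and lies on chromosome 9 at 21015985 to 21028817 (plus strand). Its DMSO libraries read 15.4, 13.1 and 13.5 FPKM and its DHTS libraries 7.06, 8.34 and 6.12 FPKM, with no overlap. The log2 fold change was −0.88 (SE 0.12, interval −1.15 to −0.61; limma, adjusted p = 0.00072), a drop in mean level of 48.7%. In GENCODE M21, 511 exonic bases of Icam1 lie opposite the antisense gene Gm47079 and 61 of Vcam1 opposite Gm43109. The sources used here do not state strand-aware counting, so reads from such stretches cannot be assigned to a strand. The deposited table puts Icam1 in a shared locus with its neighbours Icam4 and Icam5, which both stayed under 1 FPKM in all 6 libraries.

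The integrins that bind these adhesion molecules on leukocytes were low here. Itga4 was listed at 0 in 5 libraries and at 0.00995 FPKM in DMSO replicate 2, and Itgal did not exceed 0.0589 FPKM. Itgb2 stood at 2.96 ± 0.485 FPKM with DMSO and 2.39 ± 0.237 with DHTS and was not called (−0.22, adjusted p = 0.185). Quantile normalization alone called it (−0.44), and its adjusted p ran from 0.0221 to 0.435 over the alternatives. Itgb1, the widely expressed partner of Itga4, fell from 212 ± 4.36 to 157 ± 2.24 FPKM (−0.44, adjusted p = 3.2e-05). Of the 11 tested genes of the leukocyte adhesion list besides Vcam1 and Icam1, 4 were higher and 4 lower, against 28.2% and 21.9% of all genes tested. Their median log2 fold change was 0.03, which turned to −0.25 under quantile normalization. The junctional adhesion gene Esam stood at 2.02, 0.600 and 0.679 FPKM with DMSO and rose to 10.8, 3.48 and 6.54 FPKM with DHTS (1.87, adjusted p = 0.0063). Without a filter on low genes it missed the threshold (adjusted p = 0.0541, range 9.8e-06 to 0.0541). Mcam rose by 0.63 and F11r by 0.44 on the log2 scale, whereas Cd47, a ligand that restrains phagocytosis, fell by 0.85.

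The RefSeq promoter table (GRCm38.p6) held 7 of the 10 genes. The 250 bases before the RefSeq start are shown for Icam1 and Csf1, which fell, for Lif, which rose, and for Il6. This sets NF-kB and related motifs side by side. Il6 met the filter only through the DHTS libraries, so its direction is no support. Capitals mark matches, on either strand, to the kB consensus, to GGAAATTCC, to the AP-1 site TGANTCA, to the cAMP response element TGACGTCA or to the C/EBP site TTNNGNAAT. Positions are counted back from the start, where −1 is the last base before it.
Icam1 (chr9:21015690-21015939, plus strand): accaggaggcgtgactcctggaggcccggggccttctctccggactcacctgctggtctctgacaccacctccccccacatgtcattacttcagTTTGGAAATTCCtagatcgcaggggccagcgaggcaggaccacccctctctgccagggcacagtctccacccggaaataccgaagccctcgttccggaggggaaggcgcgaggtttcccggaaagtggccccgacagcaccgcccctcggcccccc
Csf1 (chr3:107760470-107760719, minus strand): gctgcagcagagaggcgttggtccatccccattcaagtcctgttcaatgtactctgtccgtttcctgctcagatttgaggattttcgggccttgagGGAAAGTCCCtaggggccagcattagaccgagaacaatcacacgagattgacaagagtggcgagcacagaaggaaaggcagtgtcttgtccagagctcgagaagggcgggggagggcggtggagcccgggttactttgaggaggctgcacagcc
Il6 (chr5:30012864-30013113, plus strand): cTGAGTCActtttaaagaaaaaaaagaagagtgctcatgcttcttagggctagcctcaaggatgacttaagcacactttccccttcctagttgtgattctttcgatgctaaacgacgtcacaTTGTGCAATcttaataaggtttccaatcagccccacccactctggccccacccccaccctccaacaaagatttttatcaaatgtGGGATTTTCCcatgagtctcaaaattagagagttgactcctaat
Lif (chr11:4257318-4257567, plus strand): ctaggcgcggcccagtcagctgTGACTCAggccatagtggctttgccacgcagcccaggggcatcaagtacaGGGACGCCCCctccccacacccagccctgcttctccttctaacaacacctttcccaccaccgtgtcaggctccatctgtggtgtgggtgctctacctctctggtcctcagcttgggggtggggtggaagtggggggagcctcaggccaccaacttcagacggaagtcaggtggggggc

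Of the 32851 promoter windows in the table, 7.25% hold the kB consensus, 0.286% GGAAATTCC, 6.75% the AP-1 site, 1.55% the cAMP response element and 10.2% the C/EBP site. The window of Icam1, which fell, holds GGAAATTCC at −153 to −145, and an overlapping C/EBP match at −156 to −148. That of Csf1, which fell, holds a kB consensus match at −154 to −145. The window of Lif, which rose, holds it as well, at −178 to −169, and that of Il6 holds it at −44 to −35. The windows of Lif and Il6 also hold an AP-1 match, and those of Icam1 and Csf1 hold none. The kB consensus was thus present in the window of Csf1, which fell, and in that of Lif, the only firm rise. Icam1 held GGAAATTCC and no match to that consensus. The promoter table held no window for Vcam1, Csf1r and Cd14, which also fell, so they are not covered. The windows of Il1a, Il1b and Il33 hold no kB match. A match describes letters in the window and is no evidence of binding.

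Csf1, the growth factor of macrophages and osteoclasts, had the highest level of the 10 genes in both groups and fell. It lies on chromosome 3 at 107741048 to 107760469 (minus strand). Its level was 139, 142 and 145 FPKM in the DMSO libraries and 91.5, 86.9 and 86.9 FPKM in the DHTS libraries. The gap between the groups was 47.5 FPKM, far wider than the spread within either. The log2 fold change was −0.68 (SE 0.04, interval −0.76 to −0.59; limma, adjusted p = 9.5e-06), a drop of 37.7% in mean level. It rests on 15309 fragments with DMSO and 9320 with DHTS, summed over 3 libraries.

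Csf1r, the receptor tyrosine kinase for CSF1 and for the related ligand IL-34, fell beside its ligand. With DMSO it read 7.76, 7.69 and 9.02 FPKM, and with DHTS 4.62, 4.24 and 4.64 FPKM. The groups did not overlap, and the log2 fold change was −0.73 (SE 0.09, interval −0.94 to −0.52; limma, adjusted p = 0.00049). The receptor lies on chromosome 18 at 61100598 to 61132149, where 873 of its exonic bases overlap Hmgxb3 on the opposite strand, so its level is uncertain to that extent. The other ligand, Il34, was at 4.46, 1.73 and 2.45 FPKM with DMSO and 1.98, 2.71 and 10.0 FPKM with DHTS. It was not called (0.42, adjusted p = 0.525), and its direction turned without DHTS replicate 3 (−0.16). Among the other 4 tested genes of the colony-stimulating factor list, 1 was called, against 50.1% of all genes tested. It was Csf3, the granulocyte growth factor, which fell from 74.4 ± 3.40 to 56.8 ± 2.69 FPKM (−0.38, adjusted p = 0.00087).

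Cd14, the surface protein that presents lipopolysaccharide, lies on chromosome 18 at 36725067 to 36726798 (minus strand) and fell as well. The DMSO libraries held 38.5, 33.3 and 32.9 FPKM and the DHTS libraries 24.2, 25.5 and 21.6 FPKM. No DHTS library reached a DMSO library. The log2 fold change was −0.53 (SE 0.09, interval −0.74 to −0.33; limma, adjusted p = 0.0019), a drop of 31.8%. Tlr4, the signalling receptor it serves, was at 5.98 ± 2.27 and 5.27 ± 0.890 FPKM and was not called (−0.12, adjusted p = 0.704), with a value of 0.13 without DMSO replicate 2.

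The partners of Cd14 moved in different directions. Lbp, the serum protein that loads lipopolysaccharide onto CD14, fell from 70.7 ± 5.32 to 27.4 ± 1.39 FPKM (−1.33, adjusted p = 6.8e-06). Hsp90b1, the chaperone that folds Toll-like receptors, fell from 563 ± 5.05 to 324 ± 8.44 FPKM (−0.80). Tlr2 rose from 40.6 ± 0.486 to 54.1 ± 1.32 FPKM (0.40, adjusted p = 0.00018). Ly96, the co-receptor of TLR4, went from 4.64 ± 0.641 to 7.26 ± 1.53 FPKM (0.54, adjusted p = 0.0219). The Ly96 call was lost under 5 alternatives, among them a replicate block (adjusted p = 0.0558) and leaving out DMSO replicate 1 (0.0674), with a range of 0.0201 to 0.105. Without Cd14, 3 of the 12 tested genes on this list rose and 4 fell, with a median of −0.13. Over all genes tested the shares were 28.2% and 21.9%.

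**Figure D2:**
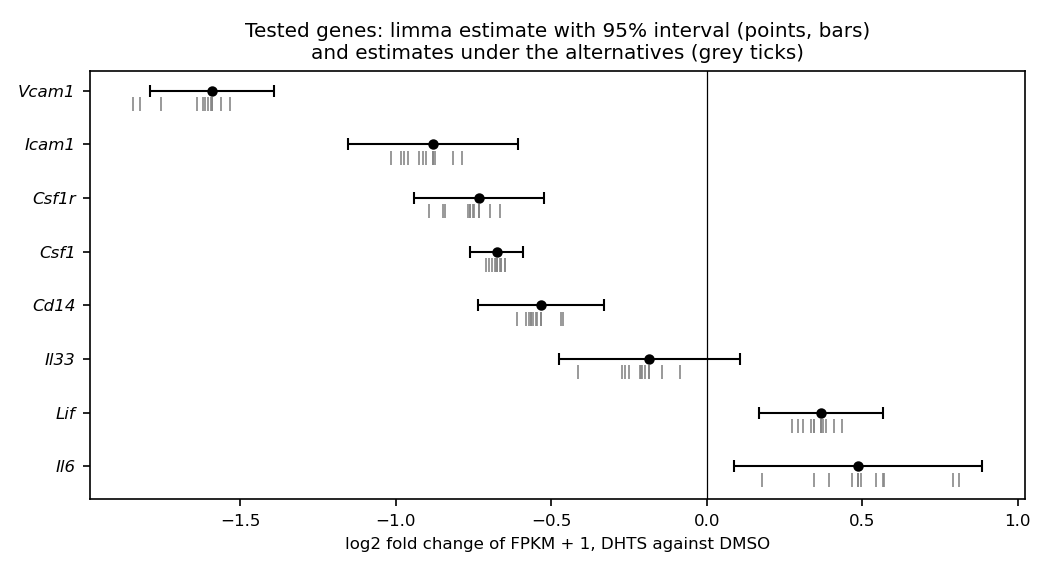
Log2 fold change of FPKM + 1 (horizontal axis, DHTS against DMSO) for the 8 tested genes; points and bars give the limma estimate with its 95% interval, and grey ticks the estimates under the alternatives. Vcam1 lies farthest left at −1.59, the interval of Il33 spans 0, and the ticks of Il6 run from 0.18 to 0.81.

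Il6, the inflammatory cytokine that signals through gp130, lies on chromosome 5 at 30013114 to 30019981 (plus strand) and was close to the limit of detection. Its level was 0.690, 0.950 and 1.16 FPKM with DMSO and 2.27, 1.48 and 1.40 FPKM with DHTS. All DHTS libraries lay above all DMSO libraries, by a gap of 0.246 FPKM. The log2 fold change was 0.49 (SE 0.17, interval 0.09 to 0.88; limma, adjusted p = 0.048), and the ratio of the means was 1.84. The values rest on 6, 8 and 12 fragments with DMSO and 20, 14 and 11 with DHTS. Il6 met the filter of a mean of 1 FPKM only through the DHTS libraries, so its count among the genes called higher is no support. The call was lost under 11 of 14 alternatives, over a range of adjusted p from 0.0359 to 0.441, including the omission of any single library (0.0513 to 0.139). The deposited table places Il6 in a locus shared with Dnajb6, Tyms and Gm5129.

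Lif, leukaemia inhibitory factor, is a relative of interleukin-6 that uses the same gp130 chain, and it rose. It lies on chromosome 11 at 4257557 to 4272514 (plus strand). Its level was 16.9, 18.6 and 16.9 FPKM with DMSO and 20.7, 22.6 and 25.3 FPKM with DHTS, with no overlap. The log2 fold change was 0.37 (SE 0.08, interval 0.17 to 0.57; limma, adjusted p = 0.0097), a rise of 30.9% in mean level. The spread among DHTS libraries was in the FPKM and not in the fragments. Scaled to a common library size, Lif had 667, 698 and 694 fragments with DMSO and 846, 857 and 848 with DHTS. FPKM per fragment differed between libraries by a factor of up to 1.23 for Lif, where Vcam1 had 1.01. On scaled fragments the log2 fold change was 0.31 (SE 0.05, adjusted p = 1.8e-05).

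The receptor chains of these cytokines went in opposite directions. Il6st, which encodes gp130, fell from 50.6 ± 1.44 to 26.7 ± 1.06 FPKM (−0.90, adjusted p = 1.0e-05). Il6ra, the binding subunit for interleukin-6, rose from 4.89 ± 0.321 to 9.49 ± 0.470 FPKM (0.83, adjusted p = 0.00015). Lifr, the partner chain for LIF, was at 1.14, 2.88 and 2.34 FPKM with DMSO and 1.77, 1.30 and 1.96 with DHTS and was not called (−0.19, adjusted p = 0.538). Downstream, Stat3 fell from 75.4 ± 3.95 to 48.7 ± 3.06 FPKM (−0.62), and the kinase gene Tyk2 rose by 0.41. Of the 17 tested genes of the interleukin-6 list other than Il6 and Lif, 4 were higher and 4 lower, with a median of −0.16. The shares over all genes tested were 28.2% higher and 21.9% lower.

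Among the interleukin-1 group, none of the 3 cytokines described here was called. Il33, a nuclear cytokine released by damaged barrier cells, lies on chromosome 19 at 29925114 to 29960718 (plus strand). It stood at 2.57, 2.30 and 2.25 FPKM with DMSO and 2.10, 2.26 and 1.59 FPKM with DHTS. The highest DHTS library just exceeded the lowest DMSO library. The log2 fold change was −0.18 (SE 0.12, interval −0.48 to 0.11; limma, adjusted p = 0.251). It passed under quantile normalization (−0.42, adjusted p = 0.0347), and the alternatives spanned an adjusted p of 0.0347 to 0.570.

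Il1a and Il1b, the classical fever-inducing cytokines, lie next to each other on chromosome 2, at 129299610 to 129309972 and 129364570 to 129371139 (minus strand). For Il1a the DMSO libraries read 0.162, 0 and 0.180 FPKM, and the DHTS libraries 0.159, 0.0992 and 0.535 FPKM. These values rest on 3, 0 and 4 fragments and on 3, 2 and 9. Il1b was listed at 0 in every DMSO library and in DHTS replicate 1, and at 0.236 and 1.05 FPKM in DHTS replicates 2 and 3, from 3 and 4 fragments. Both genes overlapped between the groups. A two-sided exact permutation test over the 6 libraries gave p = 0.6 for Il1a, where 0.1 is the smallest it can give. For Il1b the same permutation test gave p = 0.4, the smallest that its tied values of 0 allow, so it could not decide there. A difference was not detectable at this depth. An exact 0 in this table can be a failed estimate, since 75 genes of a merged chromosome 8 locus, housekeeping genes included, are listed at 0 in every DMSO library. None of the 10 genes lies there.

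**Figure D3:**
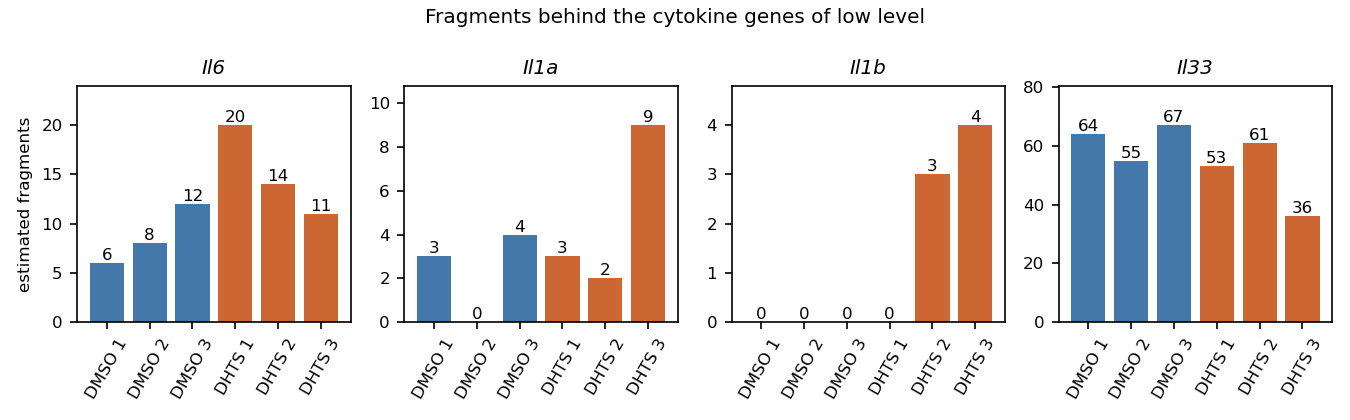
Estimated fragments per library (vertical axes from 0, numbers above the bars) for Il6, Il1a, Il1b and Il33, with DMSO in blue and DHTS in orange. Il1b has at most 4 fragments and Il1a at most 9 in any library, while Il33 has 36 to 67.

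Receptors, adaptors and other members of the interleukin-1 group moved in both directions. Il1r1, the signalling receptor, stood at 9.08 ± 0.910 FPKM with DMSO and 7.09 ± 0.584 with DHTS (−0.31, adjusted p = 0.0309), a call lost without a filter (0.0886) and without DMSO replicate 1 or 3 or DHTS replicate 2 or 3 (0.0851 to 0.0950). Its co-receptor Il1rap fell from 12.1 ± 0.546 to 9.37 ± 0.526 FPKM (−0.34, adjusted p = 0.0063). Il1rl1, the receptor of interleukin-33, was at 1.88 ± 0.364 and 1.67 ± 0.271 FPKM and was not called. The receptor antagonist gene Il1rn was at 20.7, 8.72 and 7.59 FPKM with DMSO and 6.61, 8.64 and 8.19 FPKM with DHTS (−0.48, adjusted p = 0.274). On scaled fragments it was higher with DHTS by 0.30 (adjusted p = 0.0396, range 0.0396 to 0.743). Myd88 rose from 25.3 ± 2.65 to 51.7 ± 2.65 FPKM (1.01, adjusted p = 7.5e-05), and Irak3, an inhibitor of that pathway, fell from 43.3 ± 2.62 to 18.2 ± 2.33 FPKM (−1.21, adjusted p = 5.4e-05). The related cytokine genes Il18 (1.11) and Il36a (−0.68) moved in opposite directions. Of the 16 tested genes of the list besides Il33, 4 rose and 5 fell, with a median of −0.05, against 28.2% and 21.9% of all genes tested.

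Genes that process or release interleukin-1 had 2 of 8 tested members higher and 2 lower, at a median of 0.08. Over all genes tested, 28.2% were higher and 21.9% lower, so these counts do not stand out. The calpain gene Capn1, of the family that cleaves the interleukin-1 alpha precursor, rose by 0.25 and Ninj1, which ruptures the membrane of dying cells, by 0.46. Hax1, whose protein binds that precursor, fell by 0.57. The calpain subunit Capns1 was at −0.11 (adjusted p = 0.0310), a call lost under 7 alternatives (up to 0.426). Nlrp3 and Pycard, which build the inflammasome that activates interleukin-1 beta, stayed below 0.1 FPKM in every library.

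**Figure D4:**
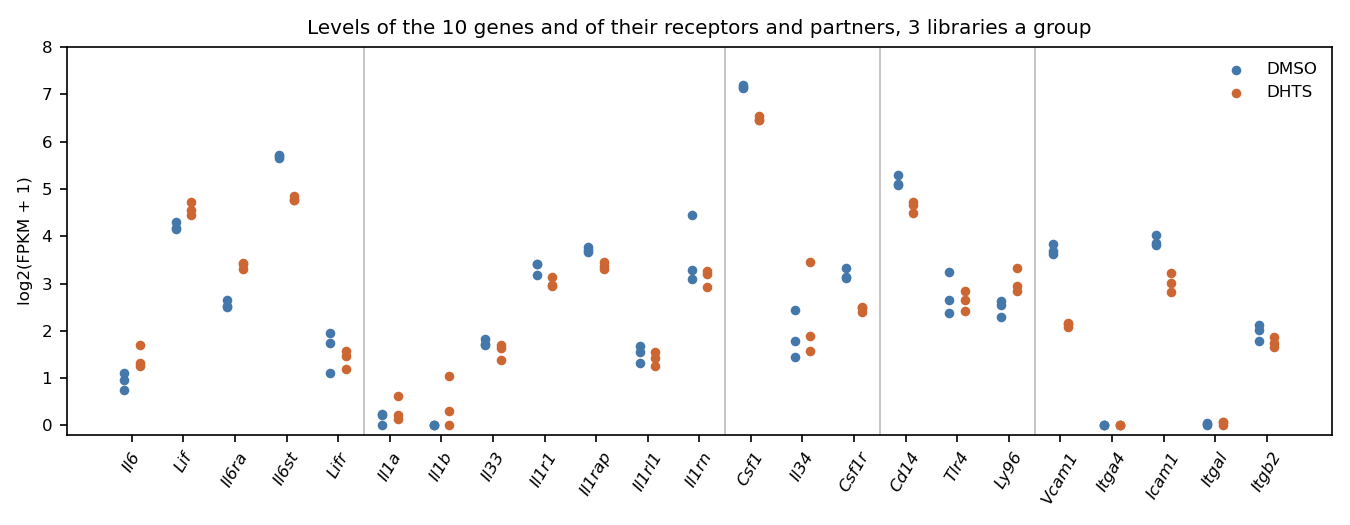
Level, as log2(FPKM + 1) (vertical axis), of the 10 genes and of their receptors and partners in the 3 DMSO (blue) and 3 DHTS (orange) libraries, grouped by pathway between grey lines. Il6st lies lower with DHTS (26.7 against 50.6 FPKM), and Itga4 and Itgal lie at or near 0 in both groups.

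The 3′ untranslated regions of all 10 genes hold the AU-rich pentamer ATTTA, counted in 1 transcript per gene of GENCODE M21. Over 20985 genes, 62.8% hold at least 1, with a median of 1 and a median density of 1.18 per kilobase. The highest density was in Il6, with 6 pentamers in 427 bases (14.1 per kilobase, above 99.5% of genes), followed by Il1b with 8.71 per kilobase (above 98.0%). The genes that fell had 4.59 (Icam1), 4.29 (Cd14), 3.23 (Vcam1), 1.89 (Csf1) and 1.80 (Csf1r) per kilobase. The value of Cd14 rests on 1 pentamer in 233 bases. Lif, which rose, had 7 pentamers and 2.20 per kilobase, and Il33 had 1.79. Of the longer element TTATTTA followed by A or T at both next bases, which 15.3% of genes hold, Lif had 3 and Vcam1 had 1. Of the genes that fell, Icam1, Cd14 and Vcam1 had a higher density than Lif, and Csf1 and Csf1r a lower one. Il6 is left out of this comparison, since it met the filter only through the DHTS libraries. The stretch of 30 bases with most pentamers is shown for genes of either direction, with ATTTA in capitals, because these elements are where AU-rich binding proteins act.
Il6 (chr5:30019684-30019713, plus strand): atttttaATTTAttgataATTTAaataagt
Lif (chr11:4272414-4272443, plus strand): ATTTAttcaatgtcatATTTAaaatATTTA
Csf1 (chr3:107741103-107741132, minus strand): taaggtcATTTAaatatctATTTAaaaaat
Icam1 (chr9:21028317-21028346, plus strand): tcttgatgtATTTAttaATTTAgagtttta

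Cytokine genes outside these families also went both ways, with 3 of 10 tested genes higher and 5 lower at a median of −0.55. Over all genes tested, 28.2% were higher and 21.9% lower. Il15, a survival factor of natural killer cells, rose from 0.549 ± 0.208 to 3.63 ± 0.394 FPKM (1.59, adjusted p = 9.8e-05). It met the filter only through the DHTS libraries, so its count among the genes called higher, here and over all 7 lists, is no support. Tnfsf15, called lower, met the filter only through the DMSO libraries (mean 2.23 FPKM with DMSO and 0.952 with DHTS). Its count among the genes called lower, here and over all 7 lists, is likewise no support. Il24 rose by 1.13, while Il19, of the same interleukin-10 group, fell by 1.31. The matrix cytokine gene Spp1 fell from 561 ± 9.91 to 238 ± 6.32 FPKM (−1.23). Tnf, the cytokine that classically induces Vcam1 and Icam1, did not exceed 0.339 FPKM in any library. Over all 7 lists, the 140 genes besides the 10 described were all in the table, 78 of them were tested, and 57.7% of these were called (20 higher and 25 lower), against 50.1% of all genes tested. Il17c belongs to the chromosome 8 locus listed at 0 with DMSO and is not read here.

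**Figure D5:**
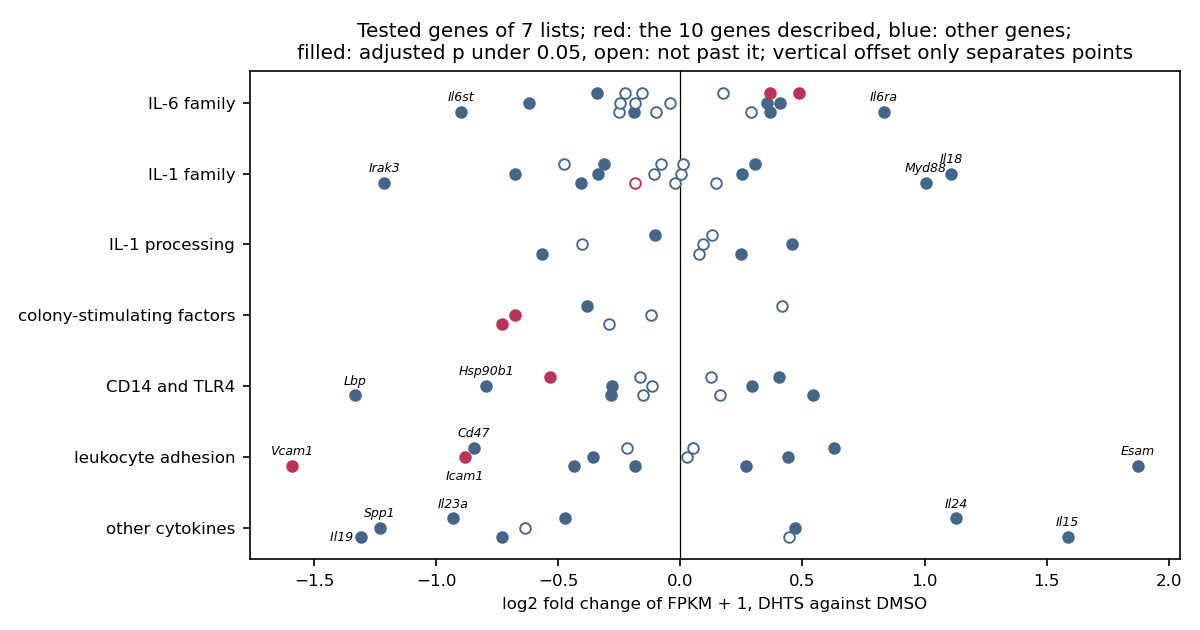
Log2 fold change of FPKM + 1 (horizontal axis, DHTS against DMSO) for the tested genes of each list, with the genes described here in red and others in blue; filled points passed an adjusted p of 0.05. Every list except the colony-stimulating factors has called genes on both sides of 0.

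Csf1r and Cd14 are best known from macrophages, and Vcam1 and Icam1 from endothelium, so the marker genes of other cell types are given beside them. Of 16 macrophage markers, 5 were listed at 0 in all 6 libraries, among them Adgre1, Itgam, Tyrobp and C1qa. Ptprc, the pan-leukocyte marker, did not exceed 0.0693 FPKM. The summed macrophage level ran from 17.5 to 20.3 FPKM with DMSO and from 93.2 to 97.7 with DHTS. Most of the latter was the lysosomal gene Cd68, at 5.50 ± 0.772 and 86.5 ± 2.99 FPKM, while Csf1r of the same list fell. Among 15 endothelial markers, 10 (Cdh5, Kdr and Tie1 included) had a value of 0 throughout the DMSO group. The summed endothelial level ran from 146 to 149 FPKM with DMSO and from 178 to 204 FPKM with DHTS. It was carried by Cd34, Ets1 and Egfl7, the 3 tested markers of this list. Cd34 (77.6 to 102 FPKM) and Ets1 (40.6 to 59.5 FPKM) were called higher, and Egfl7 was not called (−0.30; limma, adjusted p = 0.285). Epithelial markers summed to 246 to 252 FPKM with DMSO and 290 to 298 with DHTS, with 8 of 12 at a mean of 1 FPKM or more with DMSO. That sum was carried by Krt18, which rose from 136 ± 2.79 to 197 ± 4.89 FPKM. Elf3 (34.9 to 19.6 FPKM) and Epcam (24.2 to 17.3 FPKM) fell, and of 9 tested epithelial markers 2 were called higher and 2 lower. Fibroblast markers summed to 6.36 to 6.76 FPKM with DMSO and 2.53 to 2.86 with DHTS, mostly from Pdgfrb (5.36 ± 0.273 and 1.90 ± 0.119 FPKM). Most defining markers of the labelled endothelial identity were thus listed at 0 with DMSO, and 5 of the 15 in all 6 libraries. With DHTS, Cdh5 did not exceed 0.0481 FPKM and Kdr did not exceed 0.0926 FPKM. A 0 in this table can be a failed estimate, though none of the endothelial markers belongs to the chromosome 8 locus described above. Among the endothelial markers too low to test, Vwf was at 0 to 0.105 FPKM with DMSO and 0.716 to 1.45 FPKM with DHTS. Erg was listed at 0 in every DMSO library and at 0.348 to 0.671 FPKM with DHTS. Tek was at 0 with DMSO and at most 0.0856 FPKM with DHTS. The other untested endothelial markers showed no such rise: Cdh5, Kdr, Cldn5 and Pecam1 overlapped between the groups, and the rest were at 0 in all 6 libraries. The part of the marker shifts in the changes of the 10 genes was not tested.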

How the data were processed

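The submitters' processing notes list mm10 and the tools HISAT2 2.0.4, fastp 0.20.0, Cuffdiff 2.2.1 and Cufflinks. Which tool did which step, and with what annotation, is not given in the sources used here. FPKM were deposited by the authors per gene and library, scaled to transcript length and library size. A second deposited block, headed as counts, holds a signal of estimated fragments divided by 1 factor per library. Dividing by the step recovered per library gave 92.7% to 93.0% of values within 0.1 of whole fragments and totals of 9343175 to 12255246 per library, so no count model was fitted. Counting error alone makes genes of few fragments imprecise.

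Genes with a mean of at least 1 FPKM entered limma 3.58.1 (R 4.3.3) on log2(FPKM + 1), with trend and robust empirical Bayes, treatment as the only term, two-sided tests and Benjamini-Hochberg adjustment over 11416 genes. The SE is limma's moderated one. The members, the 7 gene lists and the marker lists were chosen with earlier results of these data known. Named genes are the 10 members, their direct partners and up to 4 called genes per list with the largest change. Itgb1, Cd68, Tnf, Tnfsf15, Il17c, Nlrp3, Pycard, Icam4, Icam5 and the marker genes given by name were picked with their values in view. List symbols missing from the table were matched through Ensembl IDs (1) or RefSeq synonyms (3). Gene coordinates are from GENCODE M21 (mm10), counted from 1. Libraries of a group correlated across genes at r = 0.986 to 0.989 and across groups at 0.929 to 0.932 (genes are no independent replicates). The alternatives were, 1 at a time: the pseudocount (0.1), the filter (none, or 5 FPKM), the scaling (quantile or median-ratio), the limma options (neither trend nor robust), a replicate block, scaled fragments with their own filter (mean of at least 10), omission of the chromosome 8 locus, and leaving out each library.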

Additional observations from a re-analysis of the deposited data

How the results depend on the processing

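Vcam1, Icam1, Csf1, Csf1r, Cd14 and Lif kept their direction and their call under all 15 alternatives, with the highest adjusted p at 0.0487 (Lif without a filter). No value of the 8 tested genes reversed. For Il6 the log2 fold change and limma adjusted p were 0.49 and 0.127 without a filter, 0.18 and 0.441 under quantile normalization, 0.47 and 0.0545 with median-ratio scaling, 0.49 and 0.105 with a replicate block, 0.79 and 0.0870 on scaled fragments, and 0.34 to 0.57 leaving out 1 library at a time. The number of the 10 genes called higher therefore went from 2 to 1 under each of these, and also at a mean of at least 5 FPKM, where Il6 was not tested. Il33 was called under quantile normalization alone (−0.42). The causes were not tested. Replicate numbers share only a number: deviations of same-numbered libraries correlated at −0.05, 0.06 and 0.01. The block changed no other call among the 8 tested genes. Of all genes called, 56.3% rose in the design used here, but 42.8% under quantile normalization, which moved the median log2 fold change from 0.03 to −0.07. The other listed genes called higher ran from 17 to 25 and lower from 21 to 32 over the alternatives. Depth limits Il1a, Il1b and Il6, with at most 20 fragments in a library.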
